A study of Mus musculus with 8 samples.

Results

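Hepcidin and 9 further genes of iron handling were followed in the livers of ethanol-fed mice labelled as lacking or keeping RIPK1, a kinase of cell death and inflammation signalling, in their hepatocytes. The 10 genes were chosen by symbol in GENCODE M21 (Hamp, Hamp2, Slc40a1, Tfrc, Tfr2, Hfe, Bmp6, Fth1, Ftl1 and Trf). All 10 were found among the 55335 genes of the count table, and all 10 passed the filter on low counts that left 15234 genes. The mice were 4 ethanol-fed females with a hepatocyte-specific Ripk1 knockout (Ripk1-hepKO, mice 28, 34, 37 and 39) and 4 ethanol-fed female controls (Ripk1-Con, mice 29, 32, 40 and 41), each an independent animal. Both groups received the NIAAA chronic-plus-binge regimen, an ethanol liquid diet that ends with a gavage of ethanol. As ethanol was given to both genotypes, no value here measures what ethanol itself did. The labels used here give neither the Cre driver nor the strain or age, and a knockout confined to hepatocytes leaves the gene in other liver cells.

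Hepcidin is a peptide hormone that hepatocytes secrete, and it lowers blood iron by blocking ferroportin, the only known cellular iron exporter. Its gene is switched on by BMP ligands from liver endothelial cells, which act through SMAD proteins, and by interleukin-6 in inflammation, which acts through STAT3. Inside cells, iron regulatory proteins bind hairpins in messenger RNA called iron-responsive elements, and these block ferritin translation or stabilise transferrin receptor RNA when iron is scarce. Ethanol is known to lower hepcidin expression in rodent liver.

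Mouse carries a pair of hepcidin genes in tandem, Hamp and Hamp2. Their coding sequences of 249 bases are 93.6% identical, and their reference transcripts (410 and 420 bases) are 92.4% identical. The 150 bases before each start site, taken from RefSeq on GRCm38.p6, are shown because Hamp and Hamp2 gave unlike values in the same livers. Capitals mark the BMP response element of Hamp (GGCGCC), the letters aligned to it in Hamp2, and the STAT site (TTCNNNGAA). Both stretches are on the minus strand of chromosome 7, at chr7:30944030-30944179 for Hamp and chr7:30924182-30924331 for Hamp2.
Hamp: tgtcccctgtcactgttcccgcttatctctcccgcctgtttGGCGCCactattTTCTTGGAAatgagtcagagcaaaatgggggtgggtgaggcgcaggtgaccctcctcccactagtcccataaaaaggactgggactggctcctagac
Hamp2: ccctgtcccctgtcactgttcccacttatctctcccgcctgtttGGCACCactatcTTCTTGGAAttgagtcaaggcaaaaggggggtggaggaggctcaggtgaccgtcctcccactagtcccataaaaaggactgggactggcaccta
The stretches are identical at 88.2% of aligned positions. Both hold the same STAT letters, TTCTTGGAA. The BMP element differs by G4A, with positions counted from 1 at its 5′ base and the Hamp base given first. On both strands, GGCGCC occurred in 11.9% of 32851 promoter windows of 300 bases, TTCNNNGAA in 8.30% and both in 0.645%. RefSeq windows were found for 8 of the 10 genes (12 windows). GGCGCC was present in a window of Hamp and of Tfrc, and TTCNNNGAA in those of Hamp and Hamp2. These matches describe letters and not bound sites.

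The iron-responsive elements of the ferritin, ferroportin and transferrin receptor messages are shown because they link 4 of the 10 genes to cell iron after transcription, which a count of messages shows only in part. They were found in GENCODE M21 transcripts, on the transcript strand, as a CAGTGN loop with 5 bases on each side able to pair and an unpaired C before them. A transcript of 294 of 21877 coding genes (1.34%) holds such a match. Capitals mark the loop.
Fth1, before the start codon: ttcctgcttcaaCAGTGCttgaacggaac
Ftl1, before the start codon: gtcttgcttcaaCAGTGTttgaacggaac
Slc40a1, before the start codon: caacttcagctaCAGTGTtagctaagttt
Tfrc, after the stop codon: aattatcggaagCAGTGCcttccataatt
Tfrc, after the stop codon: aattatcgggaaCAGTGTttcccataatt
The Tfrc message held 4 matches after its stop codon, of which 2 are printed. The ferritin and ferroportin messages held 1 each, before the start codon.

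The targeted gene did not mark the groups in whole liver. Ripk1 had 38.2, 35.8, 33.1 and 23.1 CPM (counts per 1e6 reads of the TMM-adjusted library) in Ripk1-hepKO mice 28, 34, 37 and 39, against 34.3, 53.6, 27.8 and 34.2 CPM in Ripk1-Con mice 29, 32, 40 and 41 (edgeR log2 fold change -0.21, adjusted p = 0.866). The genotype of each liver therefore rests on its label. One library stood apart, mouse 28, whose mean Spearman correlation with the others was 0.954, against 0.974 to 0.980 for the rest. As a check of the tissue, Alb had 48465 to 68917 CPM in Ripk1-hepKO and 74428 to 90592 CPM in Ripk1-Con. Summed hepatocyte markers stood at 70799 to 91462 CPM in Ripk1-hepKO and 98003 to 114049 CPM in Ripk1-Con, so the groups did not overlap. Alb made up the largest part of that sum. Of the 10 hepatocyte markers, 2 had log2 fold changes above 0 and 8 below. Taken singly, 4 of the 10 had groups that did not overlap, all lower in Ripk1-hepKO, as for 2.09% of all genes tested. Summed stellate markers stood at 319 to 437 CPM in Ripk1-hepKO, against 269 to 326 CPM in Ripk1-Con. Summed neutrophil markers stood at 10.3 to 49.2 CPM in Ripk1-hepKO, against 3.85 to 33.7 CPM in Ripk1-Con. The part of these cell markers in the results was not tested. In bulk RNA, fewer cells of a type and less RNA per cell cannot be told apart. At an FDR of 0.05, edgeR's quasi-likelihood test called 0.0% of the 15234 genes. An unadjusted p under 0.05 was reached by 6.68% of them, with 3.86% above 0 and 2.82% below. The DESeq2 Wald test called 36 genes (0.237%), none of them among the 10.

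Of the 10 iron genes, 0 passed the FDR, and 1, Hamp, had an unadjusted p under 0.05, as did 6.68% of all genes tested. The median log2 fold change of the 10 was 0.08, against 0.01 over all genes tested, with 7 above and 3 below 0. Of the 10, 0 had groups that did not overlap, against 4.1% of all genes tested (2.01% with Ripk1-hepKO higher and 2.09% with it lower). By group medians, the transferrin and ferritin messages were the most abundant per length, although Hamp in mouse 28 exceeded Fth1 in every liver. Median CPM per kilobase of the longest coding transcript, in Ripk1-hepKO and Ripk1-Con livers, was 6607 and 6006 for Trf, 2689 and 2517 for Ftl1, and 1140 and 1060 for Fth1. It was 333 and 87.0 for Hamp, 138 and 153 for Hamp2, 91.0 and 102 for Tfr2, and 42.1 and 36.7 for Slc40a1. The lowest were Hfe at 13.4 and 13.04, Tfrc at 6.59 and 8.96, and Bmp6 at 0.644 and 0.591. On this scale Trf, Ftl1 and Fth1 did not overlap each other in either genotype. Hamp ran from 107 to 2943 in Ripk1-hepKO and from 7.53 to 127 in Ripk1-Con, so it overlapped Hamp2 and Tfr2 in both. It also overlapped Fth1 and Ftl1 in Ripk1-hepKO, and Slc40a1, Hfe and Tfrc in Ripk1-Con. Hamp2 overlapped Tfr2 in both genotypes.

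**Figure D1:**
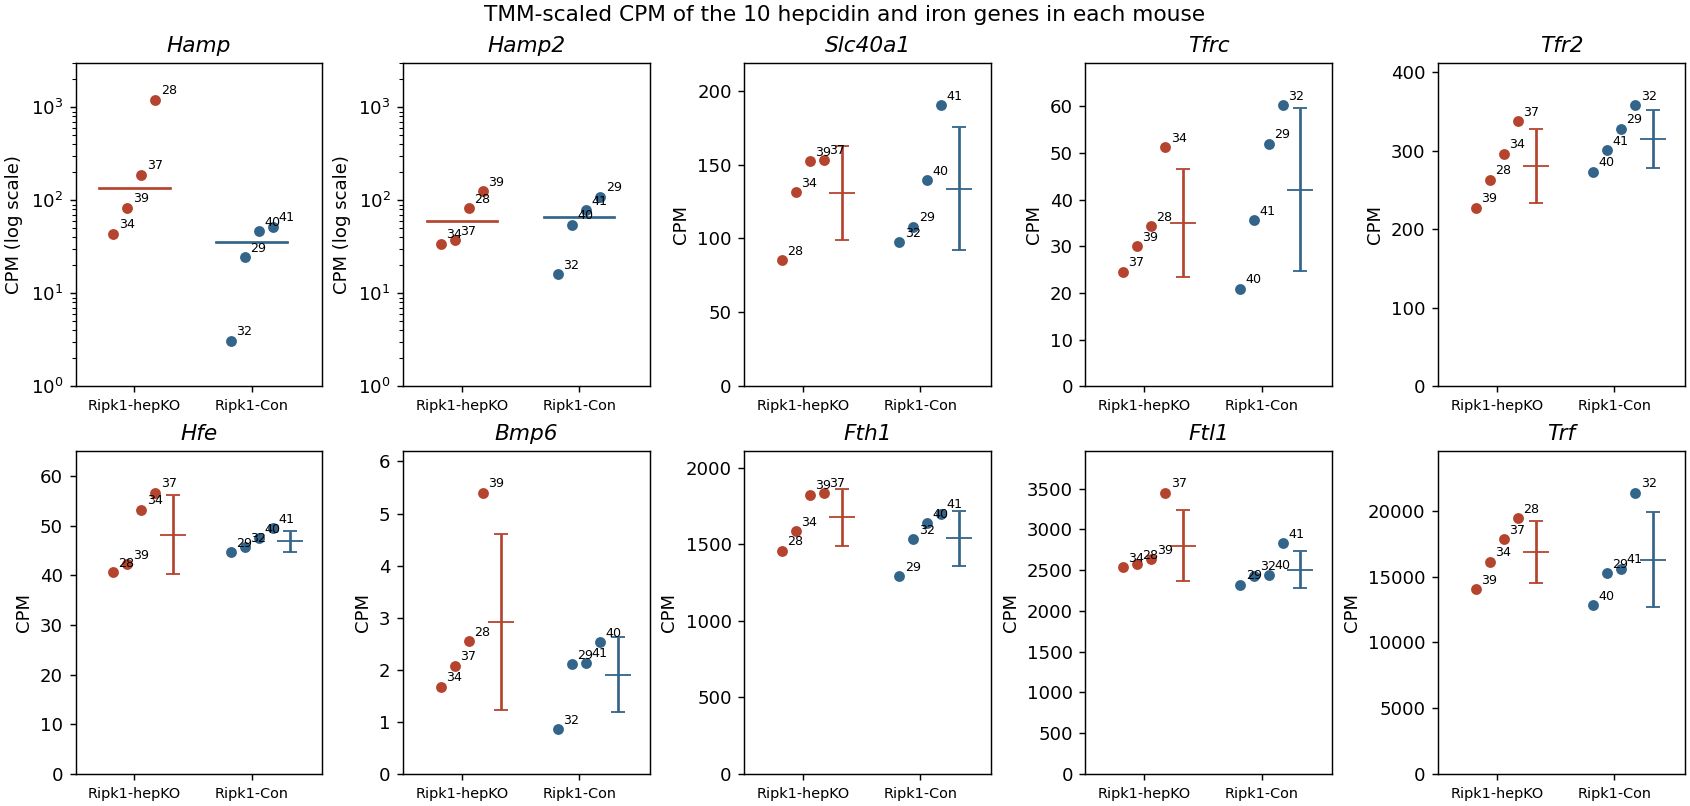
TMM-scaled CPM of each of the 10 genes in each liver, with mouse numbers beside the points, Ripk1-hepKO left and Ripk1-Con right. Bars are mean ± SD (n = 4), except for Hamp and Hamp2, whose axes are logarithmic and whose lines are medians; Hamp ran from 43.7 to 1207 CPM in Ripk1-hepKO and from 3.09 to 52.2 CPM in Ripk1-Con.

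Hamp was the most variable of the 10 genes and the one with the widest difference between the genotypes, a difference that did not pass correction. Hamp, which encodes hepcidin (ENSMUSG00000050440, chromosome 7, 30942368 to 30944032, minus strand, GRCm38), had 1207, 43.7, 189.9 and 83.1 CPM in Ripk1-hepKO mice 28, 34, 37 and 39, against 24.6, 3.09, 46.8 and 52.2 CPM in Ripk1-Con mice 29, 32, 40 and 41. Mouse 28 was far above all others, mouse 32 far below, and the groups overlapped only through mouse 34, which lay below control mice 40 and 41. The 4 Ripk1-hepKO livers averaged 381 ± 554 CPM (SD, median 137 CPM), and the 4 Ripk1-Con livers averaged 31.7 ± 22.5 CPM (SD, median 35.7 CPM). Set as Ripk1-hepKO over Ripk1-Con, here as throughout, the log2 fold change of Hamp was 3.59 ± 1.19 (SE; edgeR unadjusted p = 0.0147, adjusted p = 0.742), with a 95% confidence interval from 0.90 to 6.29. DESeq2 gave an adjusted p of 0.241.

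The size of the Hamp difference rested on mouse 28. Without it the log2 fold change was 1.74 (edgeR unadjusted p = 0.0956, adjusted p = 0.912). With mouse 40 left out as well it was 1.99 (unadjusted p = 0.137). The ratio of the highest to the lowest of the 8 livers was 391, a range wider than in all but 0.0263% of genes tested. It was 27.6 among Ripk1-hepKO livers and 16.9 among Ripk1-Con livers. The lowest library held 191 Hamp reads and the highest 65815.

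Hamp2 gave similar means in both genotypes. Hamp2, the second hepcidin gene (ENSMUSG00000056978, chromosome 7, 30922372 to 30924681, minus strand), had 82.9, 34.2, 37.4 and 126 CPM in Ripk1-hepKO mice 28, 34, 37 and 39, against 110.0, 16.0, 54.5 and 79.0 CPM in mice 29, 32, 40 and 41 of Ripk1-Con. The groups overlapped almost fully, with the highest liver in Ripk1-hepKO and the lowest in Ripk1-Con. For Hamp2, the log2 fold change was 0.11 ± 0.59 (SE; edgeR adjusted p = 0.978), with an interval from -1.21 to 1.44, and its direction turned without mouse 39 (-0.32) or mouse 32 (-0.21). The highest liver had 7.88 times the level of the lowest.

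Reads of such similar genes can be assigned to either copy. The share of each was taken within a library, which avoids scaling but not such misassignment. Hamp made up 93.6% (95% Wilson interval 93.4 to 93.8), 56.1% (54.2 to 57.9), 83.5% (82.8 to 84.3) and 39.8% (38.9 to 40.7) of the Hamp and Hamp2 counts in Ripk1-hepKO mice 28, 34, 37 and 39. It made up 18.3% (17.2 to 19.4), 16.2% (14.2 to 18.4), 46.2% (44.4 to 48.0) and 39.8% (38.5 to 41.1) in Ripk1-Con mice 29, 32, 40 and 41. Hamp was the main copy in 3 of 4 Ripk1-hepKO livers and in 0 of 4 Ripk1-Con livers, and the groups overlapped through mouse 39. The intervals cover counting error only. The log2 ratio of Hamp to Hamp2 averaged 1.49 ± 2.001 (SD) in the 4 Ripk1-hepKO livers and -1.34 ± 1.09 (SD) in the 4 Ripk1-Con livers, a difference of 2.83 (exact two-sided permutation p = 0.0857, where 4 against 4 mice allow no p below 0.0286). This ratio was chosen after the values had been seen. With both genes summed into 1 feature, the log2 fold change was 2.22 (edgeR unadjusted p = 0.0347, adjusted p = 0.742).

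**Figure D2:**
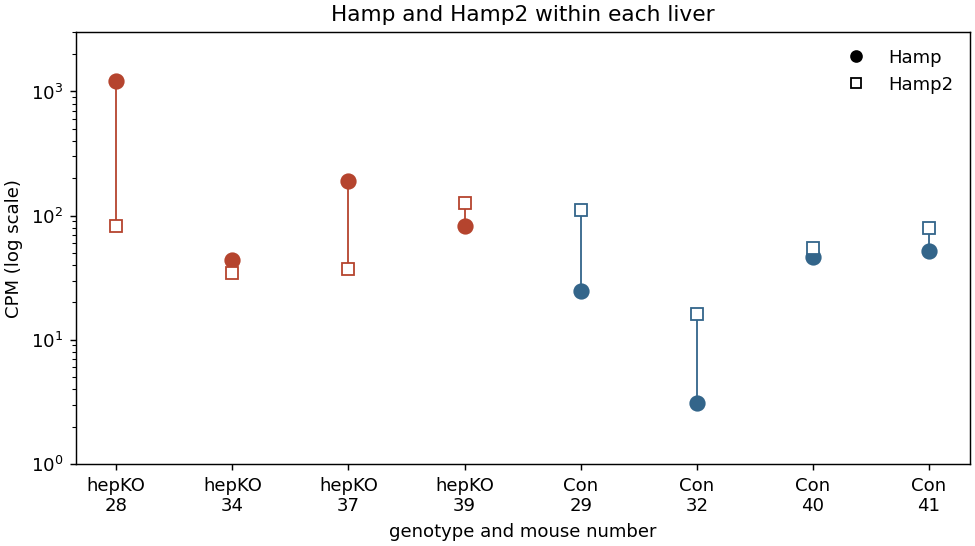
CPM of Hamp (filled circles) and Hamp2 (open squares) in each liver on a logarithmic axis, Ripk1-hepKO mice left and Ripk1-Con mice right, with a line joining the 2 genes of a mouse. Hamp lies above Hamp2 in mice 28, 34 and 37, and below it in mouse 39 and in all 4 Ripk1-Con mice.

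The ligand of the iron signal varied too, through single mice. Bmp6, the BMP ligand that liver endothelial cells make in response to iron (ENSMUSG00000039004, chromosome 13, 38345107 to 38500302, plus strand), had 2.55, 1.67, 2.08 and 5.40 CPM in Ripk1-hepKO mice 28, 34, 37 and 39, against 2.11, 0.857, 2.52 and 2.14 CPM in Ripk1-Con mice 29, 32, 40 and 41. Mouse 39 was highest, mouse 32 lowest, and the other 6 livers overlapped. For Bmp6, the log2 fold change was 0.63 ± 0.44 (SE; edgeR adjusted p = 0.793), and it was 0.16 without mouse 39 and 0.38 without mouse 32. Bmp2, the other endothelial BMP ligand of hepcidin, had its extremes in the same mice, at 21.1 CPM in mouse 39 and 5.997 CPM in mouse 32, and averaged 14.6 ± 4.34 CPM in Ripk1-hepKO and 11.3 ± 3.66 CPM in Ripk1-Con (SD, n = 4 each).

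Endothelial markers shared those extremes. Their sum over 10 of 10 detected markers was 233 to 362 CPM in Ripk1-hepKO and 176 to 317 CPM in Ripk1-Con, again with mouse 39 highest and mouse 32 lowest, and their part in the Bmp6 and Bmp2 values was not tested. Bmp6 also overlaps Txndc5 on the opposite strand. Whether the counting used strand is not given, so reads of the pair cannot be separated with certainty. Txndc5 had 133 to 156 CPM in Ripk1-hepKO and 123 to 180 CPM in Ripk1-Con.

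The surface sensors of iron gave near-equal values. Tfr2, a hepatocyte sensor of iron-loaded transferrin (ENSMUSG00000029716, chromosome 5, 137569840 to 137587481, plus strand), had 263, 296, 338 and 227 CPM in Ripk1-hepKO mice 28, 34, 37 and 39, against 328, 358, 273 and 301 CPM in mice 29, 32, 40 and 41 of Ripk1-Con. The lowest liver was Ripk1-hepKO and the highest Ripk1-Con, with overlap between. For Tfr2, the log2 fold change was -0.16 ± 0.15 (SE; edgeR adjusted p = 0.834), with an interval of 70.9% to 112% of the control level. Hfe, the haemochromatosis protein that binds transferrin receptors (ENSMUSG00000006611, chromosome 13, 23702034 to 23710854, minus strand), had 40.6, 53.2, 56.6 and 42.2 CPM in Ripk1-hepKO mice 28, 34, 37 and 39, against 44.6, 45.7, 47.5 and 49.5 CPM in mice 29, 32, 40 and 41 of Ripk1-Con. The Ripk1-hepKO livers lay on both sides of the controls. For Hfe, the log2 fold change was 0.04 ± 0.13 (SE; edgeR adjusted p = 0.961), with an interval of 84.5% to 125% of the control level.

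The co-receptor and the protease that trims it had similar means in both genotypes. Hfe2, which encodes the BMP co-receptor hemojuvelin, averaged 72.8 ± 7.33 CPM in Ripk1-hepKO and 68.7 ± 8.64 CPM in Ripk1-Con (SD, n = 4 each). Tmprss6, a protease that lowers hepcidin, averaged 272 ± 29.2 CPM in Ripk1-hepKO and 275 ± 15.7 CPM in Ripk1-Con. Neither passed in edgeR (adjusted p = 0.906 and 0.985).

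Among targets of the BMP-SMAD signal, Id1 and Id3 had higher means in Ripk1-hepKO, and Smad6 and Smad7 had near-equal means. Id1, an inhibitor of DNA-binding proteins that BMP signals induce, had 9.92, 3.54, 6.70 and 6.84 CPM in Ripk1-hepKO mice 28, 34, 37 and 39, against 3.88, 1.92, 5.85 and 5.65 CPM in Ripk1-Con mice 29, 32, 40 and 41. Mouse 28 was highest and mouse 32 lowest, as for Hamp, and the groups overlapped. Summed endothelial markers were also lowest in mouse 32 (176 CPM) but were not highest in mouse 28 (258.5 CPM). The part of these markers in the Id1 values was not tested. For Id1, the log2 fold change was 0.65 ± 0.39 (SE; edgeR adjusted p = 0.776). Id3, a relative of Id1, had 119, 10.5, 25.4 and 15.3 CPM in Ripk1-hepKO mice 28, 34, 37 and 39, against 11.3, 8.68, 14.4 and 9.31 CPM in Ripk1-Con mice 29, 32, 40 and 41. Its log2 fold change of 1.97 (edgeR unadjusted p = 0.0225, adjusted p = 0.742) was 0.65 without mouse 28. The feedback inhibitor Smad7 averaged 5.31 ± 1.75 CPM in Ripk1-hepKO and 5.66 ± 1.79 CPM in Ripk1-Con, and Smad6 averaged 2.36 ± 0.578 CPM in Ripk1-hepKO and 2.32 ± 0.509 CPM in Ripk1-Con (SD over 4 mice). Acvr2a, an activin and BMP receptor, averaged 21.3 ± 3.12 CPM in Ripk1-hepKO and 24.0 ± 2.09 CPM in Ripk1-Con.

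The BMP-SMAD list as a whole was centred near 0. Of its 22 genes, 20 were tested, 0 passed the FDR, 12 lay above and 8 below 0, and the median log2 fold change was 0.02, against 0.01 over all genes tested. The median of a list is given here as a description. The genes left out by the filter were the antagonist Nog, with no reads in any liver, and Fam132b, the erythroid hormone erythroferrone, with at most 6 reads in a library.

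Inflammatory inputs to hepcidin spread widely within each genotype. Of the 14 genes in the IL-6 and STAT3 list, 13 were tested, 0 passed, 12 lay above 0, and the median log2 fold change was 0.35, against 0.01 over all genes tested. Without mouse 28 the same list had 5 genes above and 8 below 0 and a median of -0.10, and without mice 28 and 40 it had 4 above and 9 below and a median of -0.17. Neutrophil markers, 8 of 8 detected and 6 tested, had a median log2 fold change of 0.63 over all mice. With 7 tested, their median was 0.41 without mouse 28 and 0.11 without mice 28 and 40, where 5 lay above 0 and 2 below. Socs3, a feedback inhibitor that STAT3 induces, had 45.7, 15.0, 19.6 and 4.12 CPM in Ripk1-hepKO mice 28, 34, 37 and 39, against 16.7, 28.4, 4.15 and 6.70 CPM in Ripk1-Con mice 29, 32, 40 and 41. Saa1, an acute-phase protein, had 3984, 1901, 396 and 100.3 CPM in Ripk1-hepKO mice 28, 34, 37 and 39, against 2652, 675, 38.5 and 1169 CPM in Ripk1-Con mice 29, 32, 40 and 41; it lies beside its close paralog Saa2, so its reads may be shared. The lowest livers for both genes were mice 39 and 40, and mouse 32, with the least Hamp, had more Socs3 than every liver but mouse 28. Neither gene passed (edgeR adjusted p = 0.892 and 0.948), and both directions turned without mouse 28, to log2 fold changes of -0.13 and -0.50.

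Lcn2, which encodes an iron-siderophore binding protein of the acute phase, averaged 1378 ± 849.9 CPM in Ripk1-hepKO and 846 ± 438 CPM in Ripk1-Con (SD, n = 4 each). Inhbb, a subunit of activin B that induces hepcidin, had 21.9, 11.6, 7.24 and 5.78 CPM in Ripk1-hepKO mice 28, 34, 37 and 39, against 4.62, 5.61, 4.58 and 7.53 CPM in Ripk1-Con mice 29, 32, 40 and 41. Its log2 fold change of 1.06 (edgeR adjusted p = 0.742) was 0.55 without mouse 28. Il1b, an inflammatory cytokine, had groups that did not overlap, at 2.89 to 19.5 CPM in Ripk1-hepKO and 1.33 to 2.57 CPM in Ripk1-Con. It was 1 of 13 tested genes in its list to do so, against 2.01% of all genes tested in that direction. Il1b did not pass (edgeR adjusted p = 0.742). Without mouse 28 its log2 fold change of 1.82 was 0.57. Il6 itself was below the filter, with at most 0.348 CPM in Ripk1-hepKO and 0.129 CPM in Ripk1-Con.

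**Figure D3:**
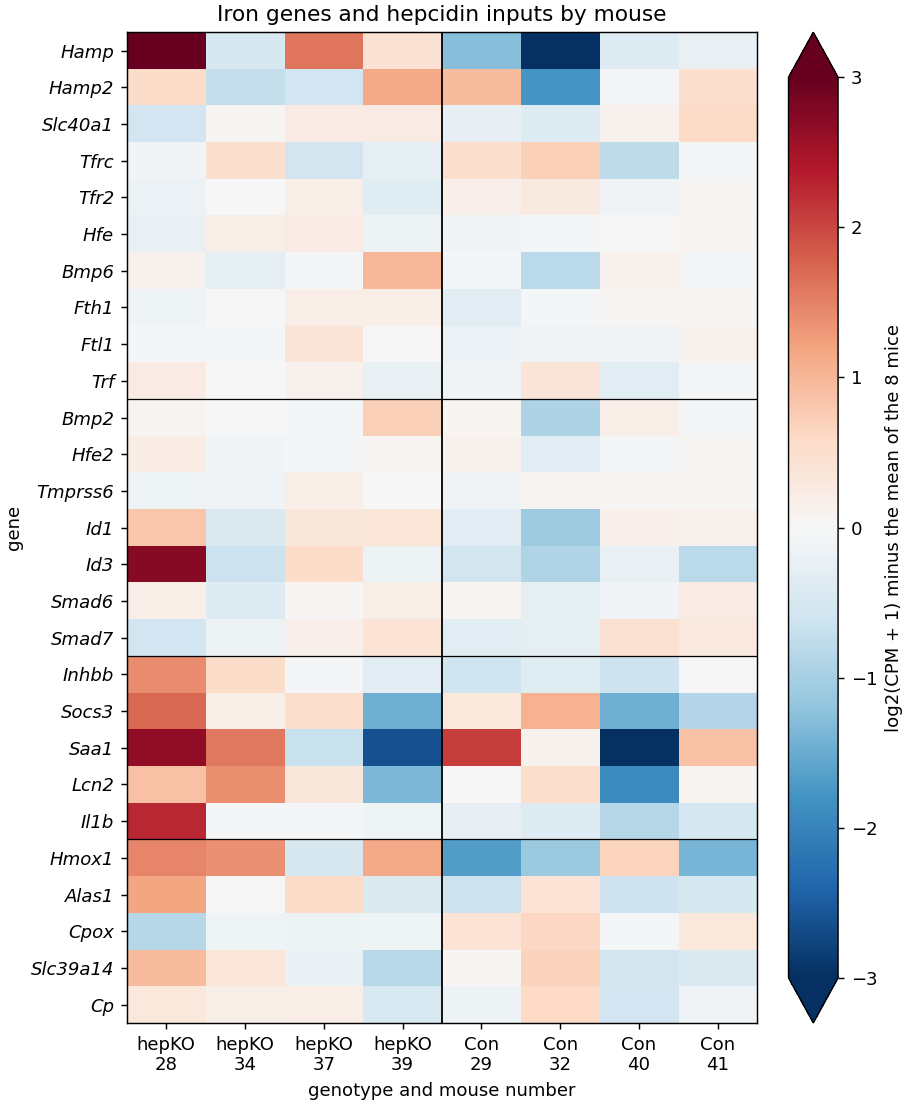
Level of each gene in each liver as log2(CPM + 1) minus the mean of the 8 mice, Ripk1-hepKO left of the vertical line and Ripk1-Con right of it. Rows are the 10 iron genes, then BMP-SMAD genes, then inflammatory genes, then heme and transport genes; colours end at 3 and -3, and mouse 28 is high for Hamp, Id3, Saa1 and Il1b.

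Across the 8 livers, Hamp followed Id1, while no relation with Socs3 or Saa1, the inflammatory genes examined, was detectable. Of 9 relations computed on log2(CPM + 1), 1 passed. Hamp with Id1 had a Pearson r of 0.93 (exact permutation p = 0.00179, adjusted p = 0.0161) and a Spearman rho of 0.93 (exact permutation p = 0.00223, adjusted p = 0.0201). Without mice 28 and 32, the livers farthest from the median of Id1, r was 0.75 over 6 livers (exact permutation p = 0.0694), so the call rests in part on them. With mice 28 and 40 left out, r was 0.93 (exact permutation p = 0.00694, adjusted p = 0.0625). Groups of 4 are too small for a value within a genotype, and the 8 points include the genotype difference. The adjustment covers the 9 chosen relations and not all genes. Among 11460 genes compared, at least the 5 described below had a higher r with Hamp (0.95 to 0.98). Likeness to Hamp was therefore not particular to Id1.

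The other inputs gave weaker relations with Hamp. The ligand Bmp6 had r = 0.51 and rho = 0.64 (exact permutation p = 0.185 and 0.0962), and r = 0.48 without mice 39 and 32. Socs3 had r = 0.19 and rho = 0.05 (p = 0.666 and 0.935 by exact permutation), and r = 0.31 without mice 39 and 40. Saa1 had r = 0.17 and rho = 0.0 (exact permutation p = 0.680 and 1.0), and r = 0.37 without the same pair. These values do not show that the relations differ from that with Id1, as that difference was not tested. Smad7 had r = -0.12 and rho = 0.10 (exact permutation p = 0.794 and 0.840), and r = 0.69 without mice 28 and 40. Hamp2 had r = 0.49 and rho = 0.40 with Hamp (exact permutation p = 0.216 and 0.327), and r = 0.01 without mice 39 and 32. After adjustment over the 9 relations, these 5 relations had p of 0.364 to 0.794 for r and 0.216 to 1.0 for rho.

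**Figure D4:**
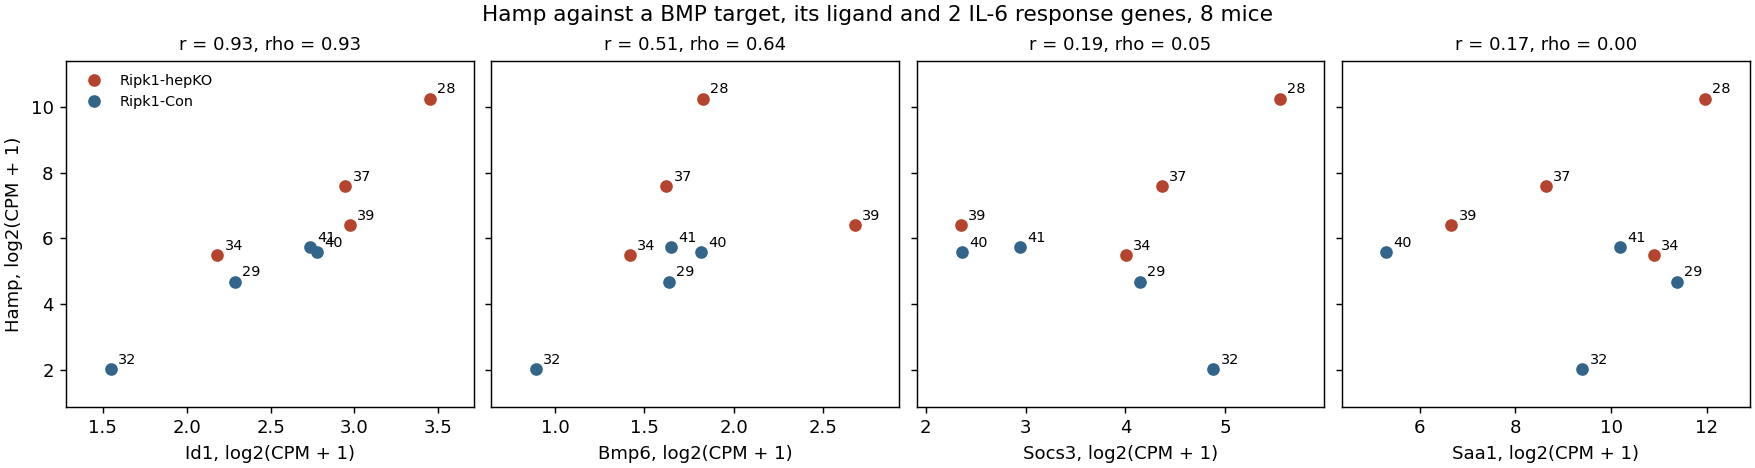
Hamp against Id1, Bmp6, Socs3 and Saa1 in the 8 livers, both axes as log2(CPM + 1), with mouse numbers, Pearson r and Spearman rho. The points for Id1 follow a line from mouse 32 to mouse 28 (r = 0.93), and those for Socs3 (r = 0.19) and Saa1 (r = 0.17) do not.

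The genes whose pattern over the 8 livers was most like that of Hamp were picked as the 5 highest Pearson r among 11460 genes with a mean of at least 1 CPM, so their r is a description with no test. Ddah2, an enzyme that degrades methylated arginines, had r = 0.98 and rho = 0.98, and r = 0.97 without mouse 28. Ccdc88c, a regulator of Wnt signalling, had r = 0.96, and Lrrc8c, a subunit of volume-regulated anion channels, had 0.95. Tmbim1 and Plekhg5 had r = 0.95 each. These genes moved over a far narrower range: Ddah2 had 3.501, 1.31, 2.08 and 1.82 CPM in Ripk1-hepKO mice 28, 34, 37 and 39, against 1.23, 0.792, 1.66 and 1.496 CPM in Ripk1-Con mice 29, 32, 40 and 41. Tmbim1 had 33.9 to 40.5 CPM in Ripk1-hepKO and 30.3 to 36.3 CPM in Ripk1-Con.

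The exporter that hepcidin blocks gave near-equal means in both genotypes. Slc40a1, which encodes ferroportin (ENSMUSG00000025993, chromosome 1, 45908068 to 45926523, minus strand), had 85.3, 131, 153 and 152 CPM in Ripk1-hepKO mice 28, 34, 37 and 39, against 108, 97.6, 139.6 and 190.1 CPM in Ripk1-Con mice 29, 32, 40 and 41. Mouse 28, with the most Hamp, had the least Slc40a1, and mouse 32, with the least Hamp, the next least. These are counts of messages, and the ferroportin protein that hepcidin blocks was not measured. For Slc40a1, the log2 fold change was -0.04 ± 0.25 (SE; edgeR adjusted p = 0.986), with an interval of 66.3% to 144% of the control level. Its sign turned without mouse 28 (0.12) or mouse 41 (0.18). Kupffer cells and macrophages, which recycle iron from red cells, also use this exporter. Their markers, 10 of 10 detected, summed to 277 to 417 CPM in Ripk1-hepKO and 112.5 to 461 CPM in Ripk1-Con, with mouse 40 lowest, and their part in the Slc40a1 values was not tested.

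The uptake receptor spread over a similar range in both genotypes. Tfrc, the transferrin receptor that imports iron (ENSMUSG00000022797, chromosome 16, 32608920 to 32632794, plus strand), had 34.3, 51.3, 24.5 and 30.1 CPM in Ripk1-hepKO mice 28, 34, 37 and 39, against 52.0, 60.2, 20.9 and 35.6 CPM in mice 29, 32, 40 and 41 of Ripk1-Con. The highest and the lowest liver were both controls. For Tfrc, the log2 fold change was -0.27 ± 0.33 (SE; edgeR adjusted p = 0.886), with an interval of 49.3% to 140% of the control level. It was -0.05 without mouse 32 and -0.50 without mouse 34. Red cell precursors also carry Tfrc. Erythroid markers, 10 of 10 detected in at least 1 liver, summed to 191 to 518 CPM in Ripk1-hepKO and 256 to 638 CPM in Ripk1-Con, with globin messages the largest part, and their part in the Tfrc values was not tested.

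Ferritin and transferrin messages overlapped between the genotypes. Fth1, the ferritin heavy chain (ENSMUSG00000024661, chromosome 19, 9980598 to 9985098, plus strand), had 1458, 1583, 1835 and 1822 CPM in Ripk1-hepKO mice 28, 34, 37 and 39, against 1289, 1531, 1637 and 1697 CPM in Ripk1-Con mice 29, 32, 40 and 41. For Fth1, the log2 fold change was 0.12 ± 0.14 (SE; edgeR adjusted p = 0.870), with an interval of 88.1% to 134% of the control level. Its groups overlapped, and mice 37 and 39 lay above every control. Ftl1, the ferritin light chain (ENSMUSG00000050708, chromosome 7, 45457944 to 45459884, minus strand), had 2571, 2539, 3449 and 2635 CPM in Ripk1-hepKO mice 28, 34, 37 and 39, against 2322, 2432, 2442 and 2832 CPM in Ripk1-Con mice 29, 32, 40 and 41. For Ftl1, the log2 fold change was 0.16 ± 0.14 (SE; edgeR adjusted p = 0.832), with an interval of 89.6% to 139% of the control level. All 4 Ripk1-hepKO livers lay above 3 of the 4 controls. The pseudogene Ftl2-ps took 10856 counts over the 8 libraries, and adding ferritin pseudogene counts to Fth1 and Ftl1 left log2 fold changes of 0.12 and 0.16.

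Trf, the transferrin that carries iron in blood (ENSMUSG00000032554, chromosome 9, 103204001 to 103230444, minus strand), had 19447, 16113, 17858 and 14028 CPM in Ripk1-hepKO mice 28, 34, 37 and 39, against 15272, 21361, 12820 and 15611 CPM in mice 29, 32, 40 and 41 of Ripk1-Con. The highest and the lowest liver were both controls, and the groups overlapped. For Trf, the log2 fold change was 0.05 ± 0.18 (SE; edgeR adjusted p = 0.966), with an interval of 78.1% to 138% of the control level.

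**Figure D5:**
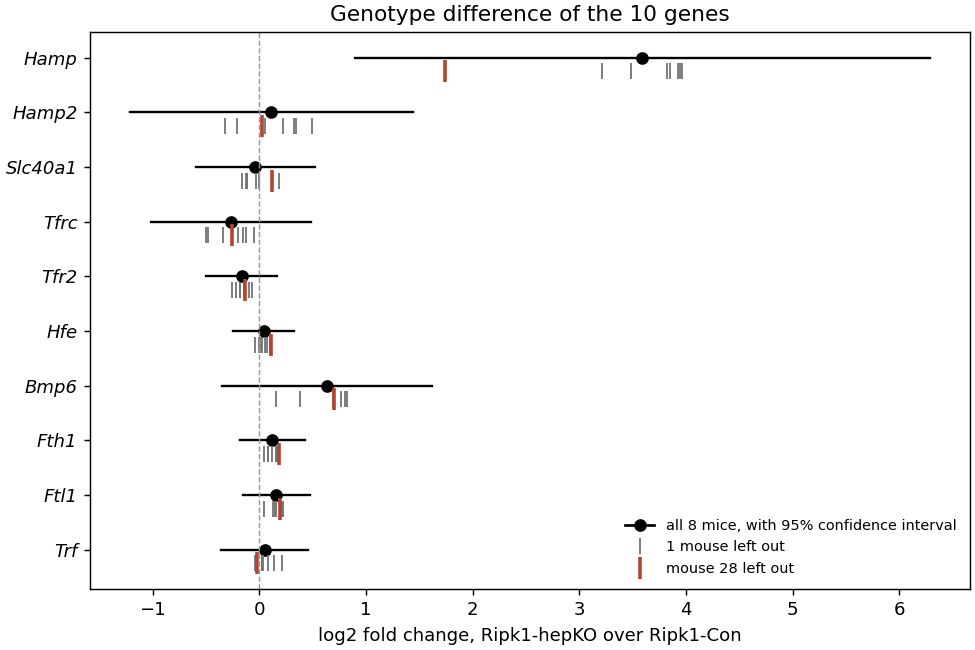
Log2 fold change of each gene, Ripk1-hepKO over Ripk1-Con, with its 95% confidence interval (line) and the values with 1 mouse left out (ticks, mouse 28 in red). Hamp stands at 3.59 and at 1.74 without mouse 28, while the other 9 genes lie between -0.27 and 0.63.

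Among messages that hold iron-responsive elements, no relation passed after adjustment, and 1 had an unadjusted exact permutation p under 0.05. Fth1 and Ftl1, the subunits of ferritin, had r = 0.71 and rho = 0.81 (exact permutation p = 0.0495 and 0.0218, adjusted p = 0.223 and 0.0980), and r = 0.74 without mice 37 and 41. Tfrc, whose message iron destabilises, had r = -0.61 and rho = -0.64 with Fth1 (exact permutation p = 0.107 and 0.0962, adjusted p = 0.320 and 0.216), and r = -0.40 without mice 37 and 29. Tfrc and Slc40a1 had r = -0.47 and rho = -0.48 (exact permutation p = 0.243 and 0.243, adjusted p = 0.364 and 0.438), and r = -0.82 without mice 28 and 41. The iron regulatory proteins themselves were near level. Aco1, which switches between aconitase and RNA binding, averaged 151 ± 13.3 CPM in Ripk1-hepKO and 160 ± 8.99 CPM in Ripk1-Con, and Ireb2 averaged 66.3 ± 28.4 CPM in Ripk1-hepKO and 60.5 ± 7.39 CPM in Ripk1-Con (SD over 4 mice). Of the 7 genes in that list 0 passed, with a median log2 fold change of 0.12, and -0.066 without mouse 28, where 2 lay above 0 and 5 below. Hif1a, a hypoxia factor, averaged 56.9 ± 28.97 CPM in Ripk1-hepKO and 42.2 ± 6.48 CPM in Ripk1-Con, and Fbxl5, which degrades IRP2, averaged 24.0 ± 1.78 CPM in Ripk1-hepKO and 22.2 ± 1.75 CPM in Ripk1-Con.

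Other transporters of iron were centred on 0. Of 18 genes for iron uptake, reduction, storage and transport, 14 were tested, 0 passed, 7 lay on each side of 0, and the median log2 fold change was -0.01. Without mouse 28, 4 lay above 0 and 10 below. Slc39a14, a carrier of iron not bound to transferrin, had 780, 519, 350 and 226 CPM in Ripk1-hepKO mice 28, 34, 37 and 39, against 411, 658, 275.0 and 299.7 CPM in Ripk1-Con mice 29, 32, 40 and 41. Its groups overlapped (edgeR adjusted p = 0.937). Cp, the ferroxidase ceruloplasmin, averaged 1702 ± 363 CPM in Ripk1-hepKO and 1605 ± 565 CPM in Ripk1-Con, and the mitochondrial iron importer Slc25a28 averaged 20.9 ± 10.4 CPM in Ripk1-hepKO and 13.7 ± 3.04 CPM in Ripk1-Con (SD over 4 mice). Heph, another ferroxidase, was near 1 CPM in both groups, at 0.764 ± 0.318 CPM in Ripk1-hepKO and 1.10 ± 0.399 CPM in Ripk1-Con.

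Heme genes were centred near 0 as a list. Of 22 genes of heme synthesis, export and breakdown, 0 passed the FDR, 2 had an unadjusted p under 0.05 (Hmox1 and Cpox, near the 6.68% of all genes tested), 13 lay above and 9 below 0, and the median log2 fold change was 0.08. Hmox1, the heme oxygenase that frees iron from heme, had 328, 309, 84.6 and 261 CPM in Ripk1-hepKO mice 28, 34, 37 and 39, against 36.4, 53.9, 187 and 43.9 CPM in Ripk1-Con mice 29, 32, 40 and 41. All but mouse 37 among Ripk1-hepKO livers lay above every control, and control mouse 40 lay far above the other controls. For Hmox1, the log2 fold change was 1.61 ± 0.60 (SE; edgeR unadjusted p = 0.0251, adjusted p = 0.742), and it was 2.46 without mouse 40.

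Cpox, coproporphyrinogen oxidase of heme synthesis, had 85.2, 143, 140.0 and 142 CPM in Ripk1-hepKO mice 28, 34, 37 and 39, against 208, 239.7, 149 and 195 CPM in Ripk1-Con mice 29, 32, 40 and 41. Its groups did not overlap, as for 2.09% of all genes tested in that direction, and its log2 fold change was -0.63 ± 0.20 (SE; edgeR unadjusted p = 0.0108, adjusted p = 0.742). Alas1, the rate-limiting enzyme of heme synthesis in liver, had 906, 393, 576 and 293 CPM in Ripk1-hepKO mice 28, 34, 37 and 39, against 255, 529, 259 and 285 CPM in mice 29, 32, 40 and 41 of Ripk1-Con. The log2 fold change of 0.71 (edgeR adjusted p = 0.769) was 0.34 without mouse 28 and 1.03 without mouse 32. Ppox, the next enzyme after Cpox, averaged 19.0 ± 2.73 CPM in Ripk1-hepKO and 15.6 ± 2.61 CPM in Ripk1-Con (SD, n = 4 each).

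Iron-sulfur cluster genes were level as a list, with 17 tested, 0 past the FDR, 9 above and 8 below 0, and a median log2 fold change of 0.02. Iba57, a late assembly factor, had groups that did not overlap, at 7.53 to 12.4 CPM in Ripk1-hepKO and 12.99 to 14.4 CPM in Ripk1-Con. This held for 2.09% of all genes tested in that direction. The log2 fold change of Iba57 was -0.39 (edgeR unadjusted p = 0.0395, adjusted p = 0.742). Iba57 and Glrx5 were named for the smallest p in the list, and 6.68% of all genes tested had an unadjusted p under 0.05. Glrx5, a glutaredoxin that passes clusters on, averaged 40.3 ± 3.69 CPM in Ripk1-hepKO and 32.9 ± 4.76 CPM in Ripk1-Con (SD, n = 4 each; edgeR unadjusted p = 0.0417, adjusted p = 0.742).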

How the data were processed

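Liver RNA came from 4 Ripk1-hepKO and 4 Ripk1-Con mice. According to the extraction protocol in the labels, polyadenylated RNA was selected, fragmented, marked for strand with dUTP, amplified by PCR and read from both ends. The authors deposited 1 table of raw counts, whole numbers for each Ensembl gene. Per the submitters' processing notes, the build was GRCm38.p6 and the tools named, in no stated order, were STAR 2.5.2b, DESeq2 1.38.1, FastQC 0.11.5 and StringTie 2.2.1. The annotation release, the counting tool and its strand setting are not given in the sources used here. Symbols, positions and transcripts came from GENCODE M21 (GRCm38), which matched 55154 of 55335 gene IDs, and promoter windows from RefSeq (GRCm38.p6).

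The test was that of edgeR 4.0.16 under R 4.3.3 (filterByExpr by genotype, TMM, robust quasi-likelihood fit of genotype alone, Benjamini-Hochberg over 15234 genes, FDR 0.05), a step first tested on simulated data. In the simulated data the test called 6% of 50 genes changed 1.5-fold, 70% of 50 changed 2-fold, and 8 unchanged genes. Changes of 1.5-fold were thus mostly missed there. CPM is TMM-scaled, and each SE comes from the quasi-likelihood F. Total counts of 28038390 to 67328158 set the counting precision. With no molecular identifiers, the Wilson intervals of the Hamp share cover counting error only. The intervals of the log2 fold changes come from the quasi-likelihood fit and include the spread between mice. The smallest chi-square per degree of freedom between any pair of libraries was 34.0, so none was a copy of another. Alternatives were other scalings, filters, DESeq2 1.42.0, limma 3.58.1 and left-out mice. The 10 genes, 6 pathway lists and 6 marker lists were chosen with earlier results of these data known. The naming rule takes the 10 genes, Ripk1, 15 fixed pathway genes, up to 2 further genes of smallest p per pathway list and the 5 genes most like Hamp.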

Additional observations from a re-analysis of the deposited data

Results flagged for a closer look

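Each value here lay farther from the other 3 mice of its group than Dixon's 95% limit for 4 values allows. Of 86 groups examined (43 genes in each genotype), 11 were flagged. A rate of 1 in 20 would flag 4.3, but that rate holds for independent, normally distributed values. The limit was applied to CPM without logarithms, where a high value stands out more, and the genes are not independent. No excess over chance can therefore be read from the number of flags. In Ripk1-hepKO, 5 flags fell on mouse 28, the library that stood apart: Hamp at 1207 CPM (next highest 189.9), Id3 at 119 CPM (next 25.4), Il1b at 19.5 CPM (next 3.08), Hif1a at 99.9 CPM (next 48.0) and, on the low side, Cpox at 85.2 CPM (next 140.0). The same group held Ftl1 at 3449 CPM in mouse 37, Bmp2 at 21.1 CPM in mouse 39 and Glrx5 at a low 34.9 CPM in mouse 34. In Ripk1-Con the flags were Hmox1 at 187 CPM and Glrx5 at 40.02 CPM in mouse 40, and Alas1 at 529 CPM in mouse 32.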

How the results depend on the processing

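No paired analysis was possible because the mouse numbers are not shared between the genotypes. Over 183 alternative fits of the 10 iron genes, 0 passed the FDR and 14 turned a direction. Hamp stayed above 0 in its 19 alternatives (log2 fold change 1.74 to 3.97, adjusted p 0.241 to 0.959). Genes past the FDR numbered 36 under the DESeq2 Wald test and 0 in the other fits, each left-out mouse included. Genes with an unadjusted p under 0.05 numbered 633 (without mouse 29) to 1409 with 1 mouse left out, against 1017.

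The cause of the turned directions was not tested. Under limma voom with sample quality weights, the log2 fold change was -0.17 for Hamp2, 0.0145 for Slc40a1, -0.13 for Smad6, 0.077 for Smad7, -0.0055 for Hfe2, -0.015 for Socs3, -0.55 for Saa1 and -0.14 for Ireb2. With scaling by library size alone it was 0.005 for Slc40a1 and 0.020 for Tmprss6. With mice 28 and 40 left out together it was -0.049 for Hamp2, 0.14 for Slc40a1, -0.12 for Trf, -0.089 for Smad6, 0.27 for Smad7, 0.032 for Tmprss6, -0.43 for Socs3, -0.91 for Saa1, -0.15 for Cp, -0.32 for Slc39a14, -0.28 for Ireb2 and -0.067 for Hif1a. In the same 6 mice, r with Hamp was 0.93 for Id1 (adjusted p = 0.0625 by exact permutation), 0.69 for Smad7, -0.49 for Socs3 and -0.33 for Saa1.

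With 1 mouse left out, log2 fold changes ran from -0.32 to 0.50 for Hamp2, -0.16 to 0.18 for Slc40a1, -0.043 to 0.11 for Hfe, -0.038 to 0.21 for Trf, -0.32 to 0.019 for Ripk1, -0.084 to 0.20 for Smad6, -0.28 to 0.10 for Smad7 and -0.089 to 0.021 for Tmprss6. They ran from -0.13 to 1.20 for Socs3, -0.50 to 1.35 for Saa1, -0.057 to 0.35 for Cp, -0.17 to 0.51 for Slc39a14 and -0.21 to 0.26 for Ireb2. The difference in the log2 ratio of Hamp to Hamp2 ran from 2.04 to 3.52. It reached the smallest possible exact permutation p of 0.0286 without mouse 39. That was the Ripk1-hepKO liver through which the groups overlapped, so leaving it out fixed this p. With any other mouse left out, the exact permutation p was 0.0857 to 0.2. Depth limits Bmp6, with 53 to 299 reads per library, and Il6, with at most 19.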
